A study of Homo sapiens with 8 samples.

Results

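The CYP3A gene cluster on human chromosome 7 holds 4 cytochrome P450 genes, CYP3A5, CYP3A7, CYP3A4 and CYP3A43, and its distance from nuclear speckles was followed here by SON TSA-seq in 786-O cells. The locus was chosen from the measured PT2399 against DMSO contrast, with its signal already known to be lower with PT2399, so all changes given for it are a description and carry no test of their own. Its members are the windows lying inside a 700 kb region of chromosome 7, from 99000001 to 99700000 on hg19, whose log2 concentration reaches 2 with PT2399 and with DMSO alike. These are 55 windows of 100 kb and 118 windows of 50 kb, 173 of the 835254 windows in the series, of which 268845 reach that minimum. All 173 windows inside the region reached it, so none was lost to the filter.

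786-O is an established clear cell renal carcinoma line that lacks VHL function and so keeps HIF-2α active without hypoxia, and 1 such line is the whole model here. The cells of every group were kept in RPMI medium with serum under normal air, and were given either 2 µM PT2399, a small molecule that stops HIF-2α from pairing with ARNT, for 3 h, or DMSO, its vehicle. For each treatment the titles name 2 SON pulldowns and 2 inputs, 8 libraries in all. Other label fields contradict the title of 4 libraries on antibody or treatment, and there the title was followed; the direction of every change below also rests on the table columns named treatment and control, read as PT2399 and DMSO.

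SON is a scaffold protein at the core of nuclear speckles, where splicing factors collect, and TSA-seq marks chromatin with biotin in proportion to its nearness to SON. A higher SON concentration therefore stands for DNA lying nearer to speckles. CYP3A enzymes oxidise a large share of medicines, steroids and bile acids, chiefly in liver and gut. CYP3A4 is the main adult form, CYP3A5 is a polymorphic form that is also made in kidney, CYP3A7 is the fetal liver form, and CYP3A43 is a form of low abundance. The cluster is controlled by nuclear receptors such as PXR, the receptor for foreign compounds encoded by NR1I2, which binds an everted repeat in the CYP3A4 promoter.

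The promoters of the 4 genes are shown because the choice of the locus did not use their sequences. Each sequence is the 250 bases before the RefSeq transcript start on GRCh38.p14, a different build from the hg19 windows. The coordinates are chr7:99679997-99680246 for CYP3A5, chr7:99735197-99735446 for CYP3A7 and chr7:99784185-99784434 for CYP3A4, all on the minus strand. For CYP3A43 they are chr7:99827763-99828012 on the plus strand. Capitals mark the 18 bases that match the CYP3A4 everted repeat best in each promoter.
CYP3A5: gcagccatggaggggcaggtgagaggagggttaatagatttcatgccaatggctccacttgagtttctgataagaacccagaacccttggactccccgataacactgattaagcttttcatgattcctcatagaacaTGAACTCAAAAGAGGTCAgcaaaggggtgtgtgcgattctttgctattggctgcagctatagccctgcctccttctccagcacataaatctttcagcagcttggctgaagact
CYP3A7: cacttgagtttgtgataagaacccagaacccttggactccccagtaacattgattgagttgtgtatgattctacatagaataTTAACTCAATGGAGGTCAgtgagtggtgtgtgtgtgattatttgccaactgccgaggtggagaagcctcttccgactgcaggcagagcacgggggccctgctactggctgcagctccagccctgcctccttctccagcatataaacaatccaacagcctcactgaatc
CYP3A4: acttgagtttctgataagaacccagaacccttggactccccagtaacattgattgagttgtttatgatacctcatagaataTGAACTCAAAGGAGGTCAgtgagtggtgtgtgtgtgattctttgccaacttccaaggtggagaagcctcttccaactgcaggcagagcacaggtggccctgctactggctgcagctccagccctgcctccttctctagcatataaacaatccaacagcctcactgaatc
CYP3A43: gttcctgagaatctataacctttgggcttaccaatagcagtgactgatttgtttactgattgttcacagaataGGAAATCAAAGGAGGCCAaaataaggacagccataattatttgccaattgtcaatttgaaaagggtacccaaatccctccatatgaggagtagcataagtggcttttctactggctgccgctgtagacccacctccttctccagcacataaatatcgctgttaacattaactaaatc

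In CYP3A4 the capitals begin 169 bases before the transcript start and hold the motifs TGAACT and AGGTCA with 6 bases between them. Searched on both strands, this arrangement was found in 3 of 27305 RefSeq promoters of the same length (0.011%). CYP3A4 and CYP3A5 were among the 3. Counted from 1 at the 5′ end of the CYP3A4 element, the CYP3A5 element differs from it by G11A, between the motifs. The CYP3A7 element differs by G2T and A10T, so that TGAACT is changed and AGGTCA is intact. The CYP3A43 element differs by T1G, C5A and T16C, and both motifs are changed. AGGTCA alone, on either strand, was present in the CYP3A5, CYP3A7 and CYP3A4 promoters and in 12.1% of all promoters. The core letters of hypoxia response elements, ACGTG and GCGTG on either strand, were in none of the 4 CYP3A promoters, against 43.1% of all promoters of this length with at least 1 of them. The CYP3A promoters are poor in CG dinucleotides, with between 0 and 3, against a median of 11 over all promoters. ACGTG and GCGTG each contain a CG, so promoters with few CG have little room for them. CYP3A4, with 0, could hold neither. The 43.1% is therefore not a matched background, and the absence of these letters is not read as a result. These letter matches describe a short window and say nothing of binding. CYP3A7 and CYP3A4 have the most alike promoters, identical at 94.8% of aligned bases, and CYP3A5 and CYP3A43 the least alike, at 62.8%. The labels do not say how the authors handled reads that match several of these related genes.

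The SON values are the authors' group means, 1 per treatment and window, on a log2 scale, so no spread over libraries can be given and the depth of each library is unknown. Windows come in 9 sets per size, shifted by 10 kb for 100 kb windows and by 5 kb for 50 kb windows. Neighbouring windows share most of their reads and are not replicates. As a measure of error, a standard error (SE) was derived from the fold and p-value of each window in the authors' deposited table, and it covers the spread of the 2 replicates as the authors modelled it, which may be technical. Changes are PT2399 minus DMSO. Over all measured windows the median change was -0.13 at 100 kb and -0.12 at 50 kb, and on chromosome 7 it was -0.08 and -0.09, so the typical window sat slightly below 0. Whether this general shift lies in scaling or in signal was not tested.

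Across the cluster the SON signal was lower with PT2399 in every window, with the most negative changes in windows over CYP3A7 and the DNA between it and CYP3A4. Lower values were common elsewhere too. In set 2 of the 100 kb windows, 66.5% of all measured windows changed by -0.02 or below. In set 4 of the 50 kb windows, 64.2% changed by -0.01 or below. The span of the 4 genes, from 99.246 to 99.464 Mb on hg19, held the centres of 20 windows of 100 kb. Their concentrations ran from 10.35 to 10.69 with PT2399 (median 10.46), against 10.71 to 10.90 with DMSO (median 10.82), so the ranges of the treatments did not overlap. The changes ran from -0.50 to -0.20, with a median of -0.34 and a median SE of 0.0859 per window. On the linear scale the median window kept 79.0% of its DMSO level. In the 39 windows of 50 kb centred on the span, concentrations ran from 9.25 to 9.59 with PT2399 and from 9.64 to 10.03 with DMSO, again without overlap. The windows share reads and the locus was chosen as lower, so the lack of overlap only restates that choice. Here the changes ran from -0.72 to -0.13, with a median of -0.30 and a median SE of 0.120.

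**Figure D1:**
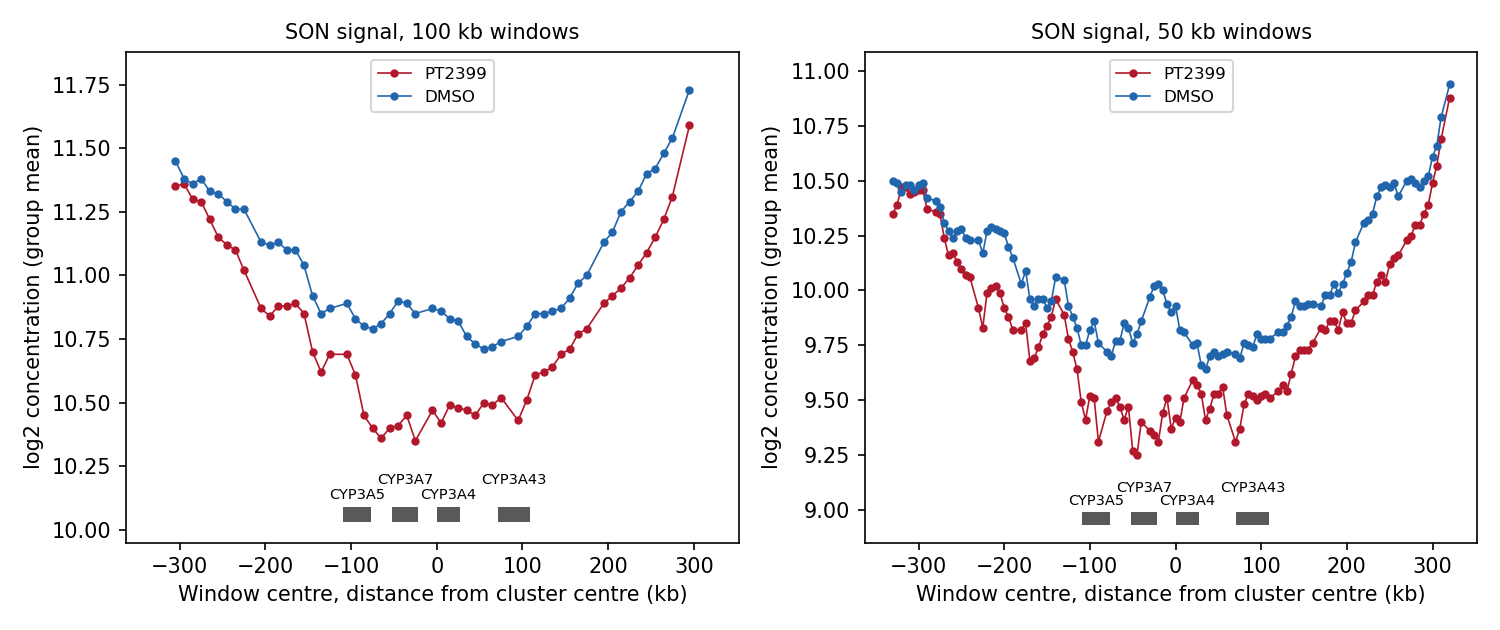
SON log2 concentration (group mean) with PT2399 (red) and DMSO (blue) in each window of the region, for 100 kb windows (left) and 50 kb windows (right), against the distance in kb of the window centre from the centre of the CYP3A span; grey bars mark the 4 genes. Both curves dip over the cluster, where the 100 kb values lie between 10.35 and 10.69 with PT2399 and between 10.71 and 10.90 with DMSO.

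Within the cluster, the levels were also read at the 50 kb window with the most negative change. This window, from 99310001 to 99360000, covers most of CYP3A7 with its transcript start, the 22 kb between the genes and the 3′ end of CYP3A4. It held 9.31 with PT2399 and 10.03 with DMSO, a change of -0.72 (SE 0.116) that left 60.7% of the DMSO level. With PT2399, 34 of the 39 cluster windows had a higher value than this one, whereas with DMSO it was the highest of the 39. Relative to the cluster median it stood at -0.16 with PT2399 and at 0.26 with DMSO. For the cluster, the DMSO value of this window was thus high and its PT2399 value low. The overlapping window from 99305001 to 99355000 was close to it, with 9.34 for PT2399 and 10.02 for DMSO. Picking the window by its change favours a high DMSO and a low PT2399 value. The locus was chosen from this contrast as well, so the comparison of the profiles carries no test.

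Gene by gene, values were read from the windows that hold a whole gene, and the genes are given in chromosome order. Each gene is held by 3 windows of 50 kb. CYP3A5, at 99.246 to 99.278 Mb, had 9.31 to 9.52 with PT2399 and 9.76 to 9.86 with DMSO, and its changes ran from -0.45 to -0.30 with a median of -0.35. In the best-centred window the change was -0.35 with an SE of 0.133, a 95% interval of -0.61 to -0.09. The intervals given for the genes are unadjusted and stand against 0, whereas the median of all measured 50 kb windows was -0.12. CYP3A7, at 99.303 to 99.333 Mb, had 9.25 to 9.40 with PT2399 and 9.80 to 9.97 with DMSO. Its changes were the most negative of the 4 genes, from -0.61 to -0.46 with a median of -0.55, and the median left 68.3% of the DMSO level. In its best-centred window the change was -0.46 with an SE of 0.119, a 95% interval of -0.69 to -0.23.

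CYP3A4, at 99.355 to 99.382 Mb, had 9.40 to 9.59 with PT2399 and 9.75 to 9.82 with DMSO. Its changes ran from -0.42 to -0.16 with a median of -0.30, and grew smaller as the windows moved away from CYP3A7. In the best-centred window the change was -0.30 with an SE of 0.116, a 95% interval of -0.53 to -0.07. CYP3A43, at 99.426 to 99.464 Mb and the only member read on the plus strand, had 9.50 to 9.53 with PT2399 and 9.74 to 9.80 with DMSO. Its changes ran from -0.30 to -0.22 with a median of -0.22, and in the best-centred window the change of -0.22 had a 95% interval of -0.45 to 0.01. For all 4 genes the PT2399 and DMSO values did not overlap over the windows that hold the gene. Those windows share most of their reads, and the locus was chosen as lower, so this too only restates the choice. In the authors' deposited tables the best-centred windows had an FDR of 0.148 for CYP3A5, 0.0153 for CYP3A7, 0.161 for CYP3A4 and 0.278 for CYP3A43. All are over the 0.01 used for calls below. Less the median of their set's measured windows, the changes in these windows were -0.23, -0.34, -0.18 and -0.10 in the same order.

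By the size of the median change the order was CYP3A7, CYP3A5, CYP3A4 and CYP3A43. The medians of CYP3A5 and CYP3A4, and of CYP3A4 and CYP3A43, were closer to each other than 1 SE of a 50 kb window, and the intervals of all 4 best-centred windows overlapped, so their order was not resolved beyond the error. The 100 kb windows that hold each gene had median changes of -0.45 for CYP3A7, -0.34 for CYP3A4, -0.29 for CYP3A5 and -0.24 for CYP3A43. There CYP3A5 and CYP3A4 stood in the other order. By SON level with DMSO the 50 kb medians were 9.86 for CYP3A7, 9.82 for CYP3A5, 9.81 for CYP3A4 and 9.75 for CYP3A43. The derived SE is that of a change, so no error can be given for these levels and their order was not resolved. With PT2399 CYP3A7 was the lowest of the 4, at 9.36, and CYP3A43, CYP3A5 and CYP3A4 had 9.52, 9.51 and 9.51.

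**Figure D2:**
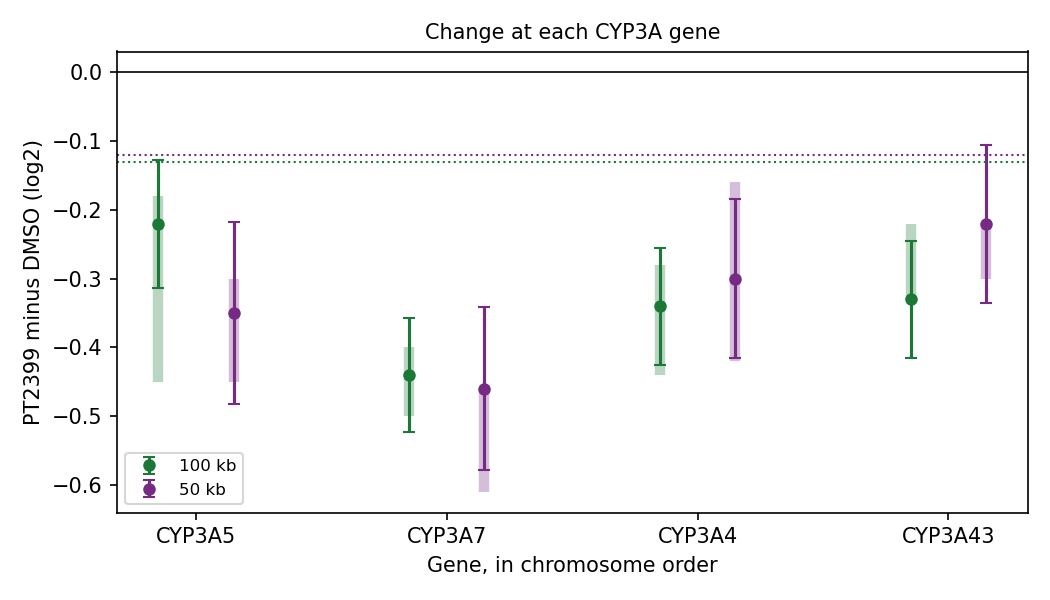
Change in SON signal (PT2399 minus DMSO, log2) at each CYP3A gene, with the 100 kb window best centred on the gene in green and the 50 kb one in purple; whiskers are 1 derived SE, pale bars the range over all windows that hold the gene, and dotted lines the medians of all measured windows (-0.13 and -0.12). CYP3A7 lies lowest, with 50 kb windows between -0.61 and -0.46.

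The DNA between the genes was read from 50 kb windows centred there. In the 22 kb between CYP3A7 and CYP3A4, the 4 windows had a median change of -0.55, with values from -0.72 to -0.43. In the 25 kb between CYP3A5 and CYP3A7 the median change was -0.30 over 5 windows, from -0.44 to -0.21. In the 44 kb between CYP3A4 and CYP3A43 it was -0.21 over 8 windows, from -0.40 to -0.13. The median of the CYP3A7 to CYP3A4 interval was close to that of the windows holding CYP3A7, and these windows overlap, so the gene and the interval were not told apart. The profile was uneven beyond them, since the window from 99350001 to 99400000 over CYP3A4 changed by -0.16 and the next, from 99400001 to 99450000 at the start of CYP3A43, by -0.40. That window had 9.31 with PT2399 and 9.71 with DMSO, with an SE of 0.134 for the change.

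A second group of lower windows lay to the right of the cluster, apart from the CYP3A genes. Its lowest value was in the 50 kb window from 99575001 to 99625000, which had 10.04 with PT2399 and 10.48 with DMSO, a change of -0.44 (SE 0.0904). Between the cluster and this group the change came closer to 0, at -0.10 in the 50 kb window from 99500001 to 99550000. At the right end of the region the 50 kb window from 99650001 to 99700000 changed by -0.06, and near the left end the window from 99010001 to 99060000 was the only 1 of the 118 above 0, at 0.02. Between that end and the cluster the changes were again lower, as in the 50 kb window from 99100001 to 99150000, with 9.92 for PT2399 and 10.23 for DMSO.

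**Figure D3:**
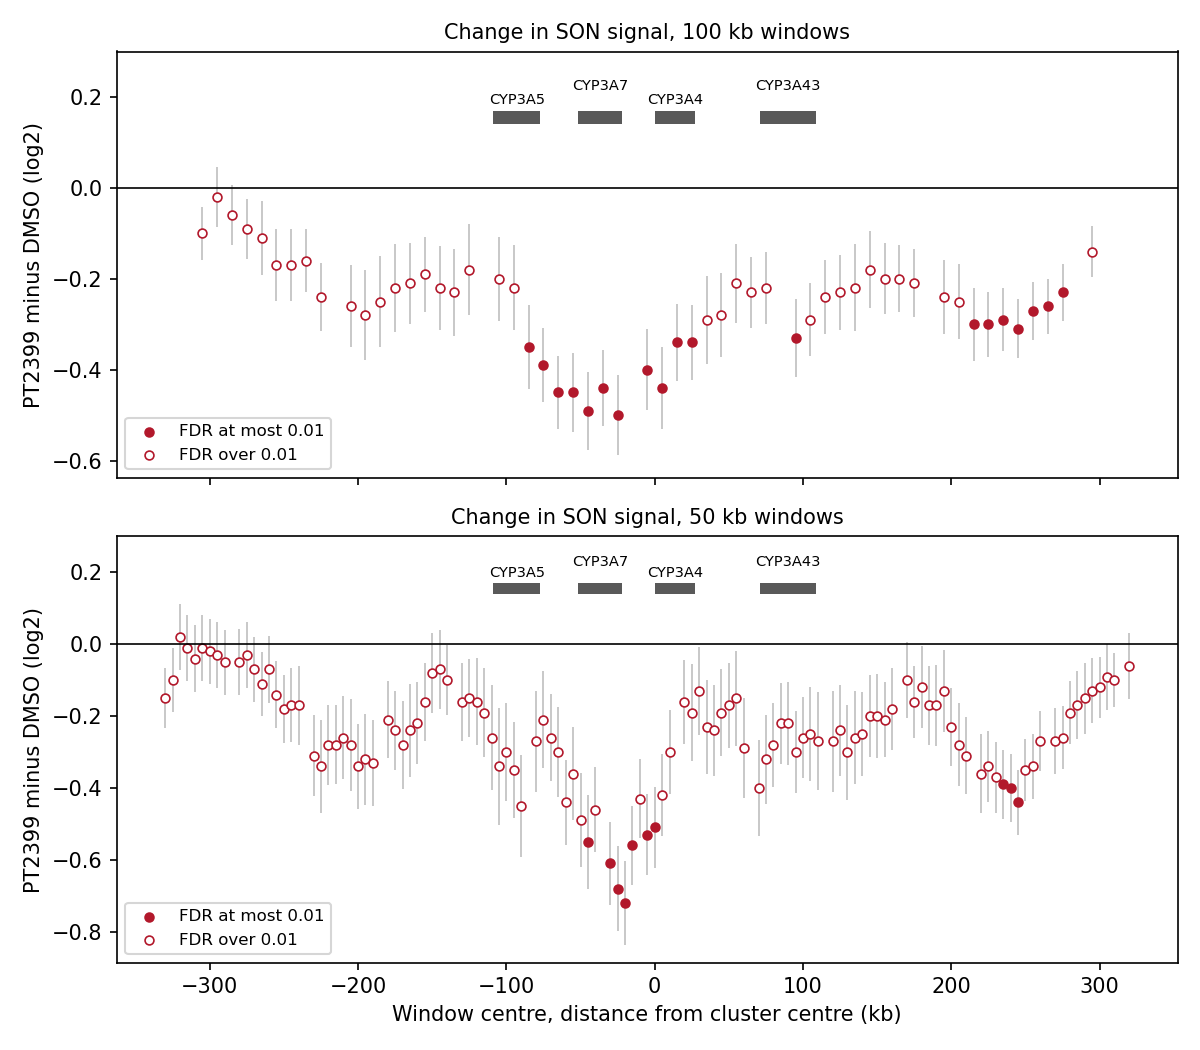
Change in SON signal (PT2399 minus DMSO, log2) with 1 derived SE for each window, at 100 kb (top) and 50 kb (bottom), against the distance in kb of the window centre from the centre of the CYP3A span; filled points have an FDR of at most 0.01 in the authors' deposited tables. The deepest trough reaches -0.50 at 100 kb, centred in CYP3A7, and -0.72 at 50 kb, centred just beyond its transcript start, and one to the right of the genes reaches -0.31 and -0.44.

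At an FDR of at most 0.01 in the authors' deposited tables, 19 of the 55 windows of 100 kb in the region were called lower (34.5%) and 0 higher, against 1.55% called lower over all measured windows of that size. At 50 kb, 10 of the 118 windows were called lower (8.47%) and 0 higher, against 0.357% over all measured windows. Since the locus was chosen from this contrast, these shares only restate the choice. The 19 calls at 100 kb formed 2 blocks, 1 of 280 kb from 99220001 to 99500000 with 12 windows, and 1 of 160 kb from 99520001 to 99680000 with 7. At 50 kb the blocks narrowed to 95 kb from 99285001 to 99380000 with 7 windows, and to 60 kb from 99565001 to 99625000 with 3. The region held 28.8% of the 66 lower calls of chromosome 7 at 100 kb and 28.6% of the 35 at 50 kb, with 1.19% and 1.28% of that chromosome's measured windows. The lowest FDR in the authors' deposited tables was 6.35e-06 at 100 kb, for the window from 99280001 to 99380000 that holds CYP3A7 and nearly all of CYP3A4. At 50 kb the lowest in the authors' deposited tables was 2.66e-06, for the window from 99310001 to 99360000. In the second block, the window from 99550001 to 99650000 had the lowest FDR in the authors' deposited table at 100 kb, 0.000343, with 11.09 for PT2399 and 11.40 for DMSO.

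The 100 kb call nearest the threshold from inside was the window from 99580001 to 99680000, with 11.31 for PT2399 and 11.54 for DMSO (FDR 0.00993 in the authors' deposited table). The nearest from outside was the window from 99410001 to 99510000, with 10.51 for PT2399 and 10.80 for DMSO (FDR 0.0135 in the authors' deposited table). The window outside the threshold had the larger change, -0.29 against -0.23, at a lower SON level. At 50 kb the authors' deposited table gives an FDR of 0.00989 for the nearest inside, which changed by -0.39, and of 0.0114 for the nearest outside, which changed by -0.35.

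Calls were also made by a normal test on the derived error in place of the authors' FDR. This test alone called 17 of the 55 and 7 of the 118 windows lower, against 1.39% and 0.246% of all measured windows. Fewer calls were left once the median change of each set's measured windows had been subtracted as well. The cluster median at 100 kb became -0.22, and 1 of the 55 windows was called lower, against 0.161% of all measured windows. At 50 kb 2 of the 118 windows were called lower, against 0.0403% of all measured windows. The 3 windows so called all lie over CYP3A7 and the interval to CYP3A4. The 50 kb window from 99310001 to 99360000 had a recentred change of -0.59 and a Benjamini-Hochberg adjusted p of 0.00181 by the normal test on the derived error. None of the windows of the second block was called after recentring, and its best 50 kb window had an adjusted p of 0.113 in the same normal test. The locus was chosen from this contrast, so these calls and adjusted p-values are a description and lend no support to either block.

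Compared with its flanks inside the region, the cluster lay in a dip of SON signal in both treatments. The 26 windows of 100 kb with no base in the gene span had a median of 11.07 with PT2399 and 11.29 with DMSO, so the cluster was lower by a median difference of -0.48 under DMSO. The left flank had medians of 11.11 with PT2399 and 11.28 with DMSO over 14 windows, and the right flank 11.02 and 11.31 over 12. Even so the cluster lay high in the genome, at a median percentile of 91.6 among measured windows of DMSO, against 96.9 for the flanks. The median change of the flanks was less negative, at -0.23 against -0.34 in the cluster, a difference of -0.12. Against the left flank alone the difference was -0.17. Against the right flank alone it was -0.085, within the median SE of 0.0859 of a cluster window. That SE is of a single window, and no error was derived for a difference of medians over overlapping windows. None of these differences was therefore resolved. The left flank had a median change of -0.17 and 0 of 14 windows called lower in the authors' deposited tables, and the right flank -0.26 and 7 of 12. Over all measured windows of 100 kb the share called lower was 1.55%. The 700 kb on the left of the region had a median change of -0.18 and 0 lower calls over 55 windows, and the 700 kb on the right -0.14 and 2 lower calls over 55. At the share of 1.55% few of 55 windows would be called, so both counts were near it. The left block also held changes down to -0.61 without a call, and its DMSO levels ran down to 9.01. Within the region, windows of lower SON level tended to have more negative changes. The correlation of mean level and change over adjoining windows ran from 0.31 to 0.83 over the 9 sets at 100 kb, with 6 to 7 windows a set that share the same libraries. The part of SON level in the changes was not tested.

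The changes can be set against those of other windows, as a description only, since the locus was chosen from them. Among all measured windows of any level, the cluster windows had a median percentile of change of 24.8 at 100 kb and 31.2 at 50 kb, and the lowest cluster windows stood at 16.9 and 13.9. The spread was narrower among windows at or above the lowest DMSO level in the cluster, a set that also holds much higher levels. Of the 9236 windows of 100 kb with a DMSO concentration of at least 10.71, the lowest in the cluster, 23 had a change of -0.50 or below (0.249%), 2.59% were as low as the cluster median, and the quartiles were -0.19 and -0.05. On chromosome 7, 1 of 531 such windows was as low, which is the CYP3A window itself. At 50 kb, 21 of 20958 windows with a DMSO concentration of at least 9.64 had a change of -0.72 or below (0.1%), 1 of them on chromosome 7, and 9.94% were as low as the cluster median. The quartiles there were -0.21 and -0.04, so part of the 50 kb cluster windows lay between them.

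**Figure D4:**
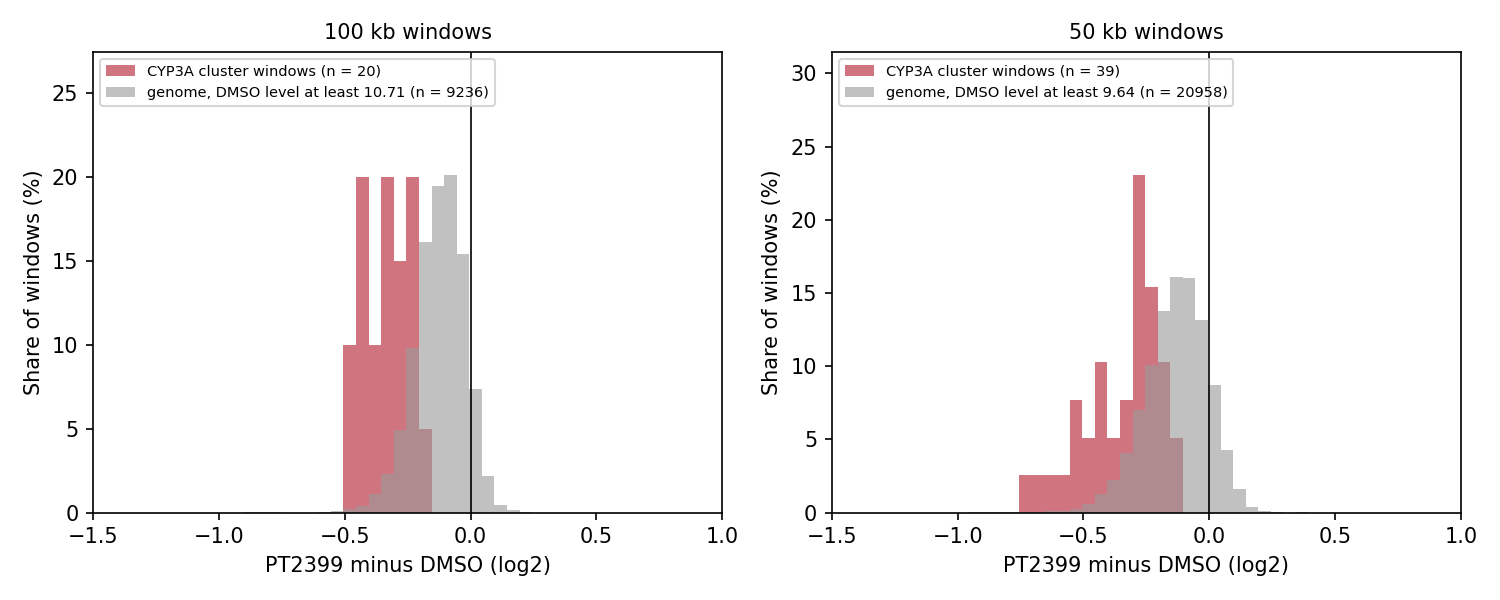
Share of windows (%) by change in SON signal (PT2399 minus DMSO, log2), for CYP3A cluster windows (red) and for all measured windows with a DMSO level at or above the lowest in the cluster (grey), at 100 kb (left) and 50 kb (right). The cluster windows, 20 and 39 in number and also contained in the grey set, overlap the grey set and are shifted to the left, with medians of -0.34 and -0.30 against -0.12 for the grey set at both sizes.

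In the authors' deposited gene list for lower 100 kb windows, all 4 CYP3A genes were present, against 4.27% of protein-coding genes in the RefSeq gene table. In their deposited 50 kb list CYP3A7 alone of the 4 was present, against 1.1% of protein-coding genes. The lists come from the contrast that the locus was chosen from, so membership only restates the choice. At 100 kb the 4 genes also lie in 1 called block of 280 kb and are not separate results. Both lists also name the readthrough transcript CYP3A7-CYP3AP1. How genes were given to windows is not stated, but for these genes the lists can be set against the windows. A gene was listed exactly where its transcript start lay in a called window, in 8 of 8 combinations of gene and window size, whereas any overlap with a called window matched in 7 of 8. The exception was CYP3A4 at 50 kb, which 4 called windows overlapped and which was not listed, and none of these 4 windows reached its transcript start. CYP3A5 and CYP3A43 were overlapped by 0 called windows at 50 kb.

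The neighbours were read from the order of the RefSeq table, without coordinates, since that table is of another build. Of the 12 nearest protein-coding genes to the right, the authors' deposited lists name 6 at 100 kb and 2 at 50 kb. Over all protein-coding genes the shares listed were 4.27% and 1.1%. The 6 were OR2AE1, an olfactory receptor gene, GJC3, which encodes a connexin, AZGP1, which encodes the secreted zinc-alpha-2-glycoprotein, and the zinc finger genes ZKSCAN1, ZSCAN21 and ZNF3. AZGP1 and ZKSCAN1 were also in the 50 kb list. Of the 12 nearest protein-coding genes to the left, 0 were in either list, among them ZSCAN25, a zinc finger gene next to CYP3A5. At the background shares few of 12 genes would be listed, so the 0 on the left was near them and is not read as a result. Genes next to each other can share called windows, so the listed neighbours on the right are not separate results. The lists also come from the contrast that the locus was chosen from.

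Other genes of drug metabolism were looked up in the same lists. Of 35 further genes of this pathway, 0 were in the authors' deposited 100 kb or 50 kb gene lists, against 4.27% and 1.1% of protein-coding genes, shares so low that few of 35 genes would be listed at the background rate. They comprised 10 regulators of CYP3A expression, such as NR1I2 and HNF4A, the electron donors POR and CYB5A, 14 other drug-metabolizing P450 genes, 5 conjugating enzymes and 4 transporters. Absence from a list is not a measure of change, and the windows of these 35 genes were not read because hg19 positions were used for the CYP3A genes only.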

How the data were processed

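SON TSA-seq of 786-O cells treated with PT2399 or DMSO was analysed from deposited tables. Per the submitters' processing notes, Bowtie2, Picard, DiffBind and bedtools were used on build hg19; versions, the use of inputs, read counting, scaling and handling of multi-mapping reads are not stated. Whether the 2 replicates are separate cultures is not stated either. Per the file headers, the authors' tables give log2 concentrations and a log2 fold for each window, and also a p-value and an FDR. The deposited fold is DMSO minus PT2399 to within 0.01, and changes here are PT2399 minus DMSO. The members and lists were chosen with earlier results of these data known, and the 4 gene positions on hg19, to the nearest kb, came with the rule for the members.

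A cluster window has its centre inside the gene span, and a flank window has no base in it. The SE is the absolute change over the normal quantile of the deposited p-value; where the change was under 0.1 or p was 0.5 or more, the median of its concentration bin (20 bins) was taken. For recentring, the set's median over measured windows was subtracted, and p-values from the normal distribution received a Benjamini-Hochberg adjustment within the set. These steps were run on simulated windows with independent normal noise of the derived SE. That noise follows the model of the test itself, so the run checks the code and not the calls made here. No count test was possible on these units, so the authors' FDR at a maximum of 0.01 was used. Named genes were the CYP3A genes, listed genes among the 12 nearest on each side with the nearest of each side, and listed pathway genes; examples of unlisted pathway genes were chosen after the lists were seen. Of 1023 and 258 listed symbols, 981 and 251 matched the RefSeq table. Promoters are from RefSeq (GRCh38.p14), matched by symbol for all 4 genes. Alternatives covered the threshold, adjustment, scaling, sets, window size, minimum and zone limits. Scripts ran in Python 3.11.15 with scipy 1.17.1, pandas 2.3.3 and numpy 2.4.6, and figures were drawn with matplotlib 3.10.9.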

Additional observations from a re-analysis of the deposited data

How the results depend on the processing

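The cluster change, its difference from the flanks, the DMSO level difference and the 4 gene changes kept their direction under all 36 alternatives tried, and 35 of them stayed within 1 derived SE of the value reported. The exception was recentring on all measured windows, which put the cluster change at -0.22 in place of -0.34, because it subtracts the median of the set. Single window sets, which share most of their reads, gave cluster changes from -0.37 to -0.29. Part of this tally was fixed in advance. The locus was chosen as lower with PT2399, and the alternative minimum levels removed no window of the region. The tally is therefore a description and no test of robustness. For the DMSO level difference the derived SE is that of a change, and it gives no error of a level. The derived SE is also that of a single window and gives no error of a difference of medians. The counts of lower windows, 19 at 100 kb and 10 at 50 kb, moved more. They were 9 and 5 at an FDR of at most 0.001 (0.528% and 0.0857% of all measured windows), 23 and 19 at 0.05 (4.29% and 1.25%), and 33 and 25 at 0.1 (7.18% and 2.44%). Recentring left 1 and 2. The derived error without recentring gave 17 and 7 (1.39% and 0.246%), and adjustment over all sets 18 and 10 (1.57% and 0.353%). Single sets, each with fewer windows, gave from 1 to 3 calls at 100 kb and from 0 to 2 at 50 kb, so at 50 kb set 9 had 0 calls at the authors' FDR. No paired analysis was possible because the tables hold 1 mean per treatment, and for the same reason no replicate could be left out. Depth per library is unknown, and whether the general shift below 0 lies in scaling or signal was not tested.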
